A study of Mus musculus with 16 samples.

Results

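The genes described here are 10 genes of the muscle atrophy programme: the ubiquitin ligases Fbxo32 and Trim63, the transcription factors Foxo1 and Foxo3, and Gadd45a, Cdkn1a, Eif4ebp1, Hdac4, Sqstm1 and Bnip3. Their probes were taken as every probe of the array whose listed symbol equals a gene name, which gave 14 probes for 9 of the 10 genes, of 25697 probes in all. No probe is listed as Foxo3. A probe with the Entrez identifier of that gene is listed as Foxo3a, which the selection did not take, and its values are given as a description only. After a filter on detection, 13 probes for 8 genes remained among 14763 probes for 10952 genes.

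The measurements are Illumina BeadChip intensities of RNA from whole hamstring muscle of female mice, taken at day 2, with 1 array per sample. Mice had either spinal cord injury (SCI) between vertebrae T12 and T13 or sham surgery. In each surgery group the muscle was injected with cardiotoxin (CDTX), a snake venom peptide used to injure muscle fibres, or with saline. Each combination has 4 arrays, and the groups are called SCI+Saline and SCI+CDTX after injury and Sham+Saline and Sham+CDTX after sham surgery. The labels exclude SCI+CDTX replicate 2 from the final analysis, so 15 arrays entered the fit. All 4 groups had surgery and an injection. Strain, age and any pooling of animals are not given in the sources used here, and p-values measure the spread between these samples. Per the series design, bone forms in muscle in the SCI+CDTX condition alone, so that group is the one set against the others.

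Muscle atrophy after disuse, fasting or denervation is known to run through a shared set of genes. When signalling from insulin and IGF1 through Akt falls, FoxO transcription factors move to the nucleus and switch on the ubiquitin ligases atrogin-1, encoded by Fbxo32, and MuRF1, encoded by Trim63, which mark proteins for the proteasome. Loss of nerve input also induces Hdac4 and, downstream of it, myogenin and Gadd45a. Glucocorticoids act on Trim63 and Fbxo32 as well, and autophagy, served by Sqstm1 and Bnip3, removes organelles and protein aggregates.

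The Trim63 promoter is shown because it is known as a place where FoxO factors and the glucocorticoid receptor act side by side. The 250 bases before the gene's start lie at chr4:134314870-134315119 on the plus strand of GRCm38.p6, from RefSeq. The capitals mark a receptor core TGTTCT followed directly by a FoxO element TGTTTAC, at chr4:134314920-134314932, from base -200 to base -188 counted from the start site.
Trim63 promoter: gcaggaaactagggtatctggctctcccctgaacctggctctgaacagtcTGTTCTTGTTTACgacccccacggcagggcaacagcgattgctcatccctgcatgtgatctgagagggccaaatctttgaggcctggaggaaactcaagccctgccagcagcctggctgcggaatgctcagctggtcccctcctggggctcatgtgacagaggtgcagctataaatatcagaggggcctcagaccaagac

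Promoters of 300 bases, 250 before and 50 after the start, were available in RefSeq for 8 of the 10 genes among 32851 promoters, all but Fbxo32 and Eif4ebp1. Read on both strands, TGTTTAC was present in 3.65% of all promoters and TGTTCT in 19% of them, and 0.877% held both. The receptor core directly before the FoxO element, the 13 letters in capitals above, was found in 1 of 32851 promoters (0.00304%), that of Trim63. As these are the letters of Trim63 itself, its match was fixed in advance, and the count is no test of rarity. Among the promoters of these genes, Trim63 held the only match to either motif. The E-box CACGTG was in 7.15% of promoters and, among these genes, in that of Bnip3 at base -108. These matches describe letters in a window and say nothing of binding in these muscles.

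Of the 14 probes, 3 read Fbxo32, 3 read Cdkn1a, 2 read Gadd45a and the other 6 genes with a probe have 1 each. The following 50-base probes show what was hybridised for both ligases and for the brighter Gadd45a probe, all in lower case because no part is singled out.
Fbxo32 ILMN_2752994: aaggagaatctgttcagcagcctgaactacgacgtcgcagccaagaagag
Trim63 ILMN_3161060: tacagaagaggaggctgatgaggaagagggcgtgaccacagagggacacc
Gadd45a ILMN_2742152: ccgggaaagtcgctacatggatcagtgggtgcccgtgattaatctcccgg

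The Fbxo32 probes start at bases 405, 2053 and 2304 of the transcript, the Gadd45a probes at bases 604 and 739, and the Cdkn1a probes at bases 1428, 1611 and 1734, per the array annotation. Fbxo32 lies on chromosome 15 (15qD1), Trim63 on 4 (4qD3), Foxo1 on 3 (3qC), Gadd45a on 6 (6qC1), Cdkn1a on 17 (17qA3.3), Eif4ebp1 on 8 (8qA2), Hdac4 on 1 (1qD) and Sqstm1 on 11 (11qB1.3). A probe counts as detected on an array when its deposited detection p-value is under 0.05. On that rule 12 of the 13 retained probes were detected on all 16 arrays, and Fbxo32 ILMN_2752994 on 15, missing on Sham+CDTX replicate 1. The Bnip3 probe ILMN_2755900 was detected on 0 of 16 arrays, with raw intensities from 89.8 to 109.1. The Foxo3a probe ILMN_2690574 was also detected on 0 of 16, between 90.1 and 102.5. Bnip3, a mitophagy receptor, and Foxo3 therefore enter no comparison. A probe at background cannot tell a low transcript from a probe that does not hybridise, so no level is given for either gene.

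Several properties of the arrays bear on the values below. Mean raw intensity was 230.5 to 277 on the Sham+Saline arrays and 319.9 to 373.1 on the other 12, and 11114 to 13694 probes were detected per array. All SCI arrays lie on 1 BeadChip and all sham arrays on another, so SCI and slide cannot be told apart, while CDTX and saline are compared within a slide. All 14 listed muscle fibre markers were detected on all 16 arrays, with a summed intensity from 149000 to 184600 on the 15 arrays. Probes of the same gene differ among themselves in a way that moves with the arrays. A score of those differences, the leading component over 2782 genes with at least 2 probes (33.1% of the variance), was 18.3 to 20.6 in Sham+CDTX and 14.8 on the excluded SCI+CDTX replicate 2. The other 11 arrays lay between -14 and -3.6. Results on Sham+CDTX are therefore also given from a fit of 16 arrays with this score as a covariate. The score nearly coincides with membership of Sham+CDTX. Within groups it varies most in SCI+CDTX, from -6.3 to 14.8, through the excluded replicate 2. Values from that fit therefore rest largely on that array. Fbxo32, Gadd45a and Cdkn1a are also among the genes that made the score, so the fit is no independent adjustment.

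Levels below are log2 normalized intensities, so a difference of 1 is a doubling; levels of different probes are not comparable with each other. In saline-injected muscle, SCI was accompanied by higher levels of every retained member probe. Of the 13 probes, 13 were called higher and 0 lower in SCI+Saline against Sham+Saline (limma, Benjamini-Hochberg adjusted p under 0.05), where 29.5% of all probes tested were called and 14.8% were called higher. The median log2 fold change was 2.03 over the 13 probes and -0.01 over all probes, and 12 of the 13 changed by at least 1. The groups did not overlap at any of the 13 probes, and the share of all probes without overlap was not counted. All 13 were also called, and higher, with 16 arrays (23.9% of all probes called), under median scaling (34.8%) and with the probe difference score as a covariate (26.8%).

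**Figure D1:**
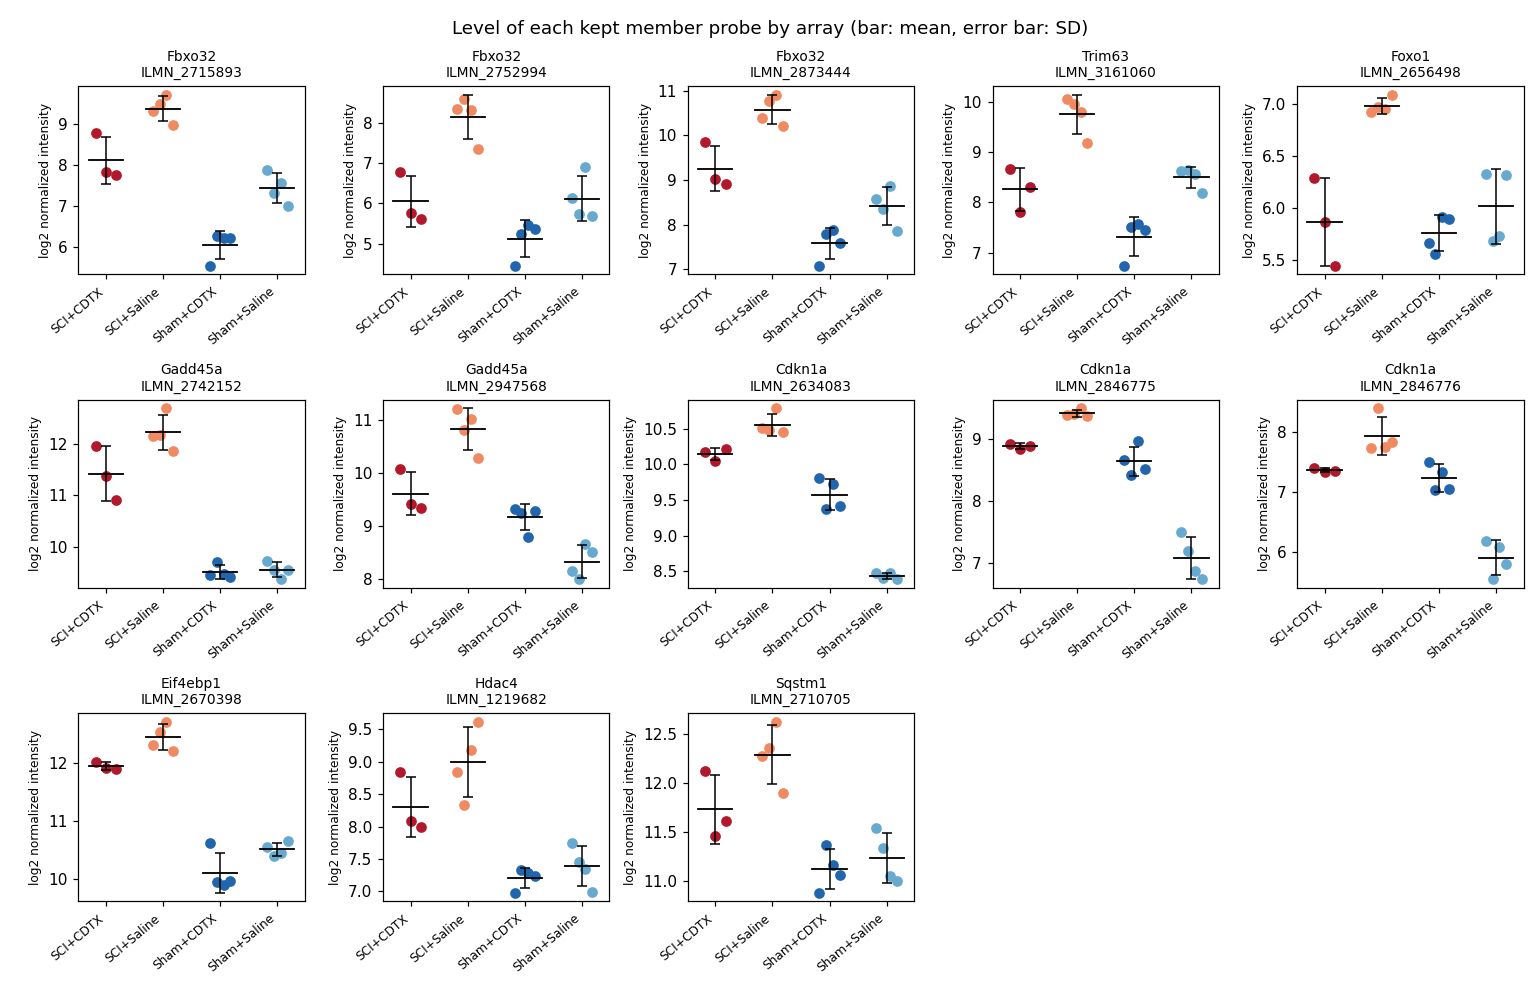
Log2 normalized intensity (vertical axes, each panel on its own scale) of the 13 retained member probes on the 15 arrays, by group; each point is an array, the horizontal bar the mean and the error bar the SD. SCI+Saline has the highest mean in all 13 panels. Sham+CDTX has the lowest in all but those of Cdkn1a and Gadd45a ILMN_2947568, where Sham+Saline is lowest.

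Fbxo32, an F-box protein that names the substrates of its ubiquitin ligase complex, was read at its brightest probe, ILMN_2873444, at 10.39, 10.78, 10.91 and 10.21 in SCI+Saline. The same probe stood at 8.58, 8.36, 8.86 and 7.86 in Sham+Saline, at 9.84, 9.02 and 8.9 in SCI+CDTX, and at 7.08, 7.78, 7.87 and 7.59 in Sham+CDTX. SCI+Saline lay above every other group with no overlap, and Sham+CDTX and Sham+Saline overlapped by a single array of each. The level in SCI+Saline was 4.46-fold that in Sham+Saline (log2 2.16 ± 0.24 SE, adjusted p = 2.5e-06). The other probes of the gene gave 1.95 ± 0.24 for ILMN_2715893 and 2.05 ± 0.32 for ILMN_2752994, so the probes of Fbxo32 differed by less than their errors in this comparison.

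Trim63, a RING-finger ligase of the sarcomere, was at 10.05, 9.95, 9.8 and 9.18 in SCI+Saline and at 8.61, 8.63, 8.56 and 8.18 in Sham+Saline. In the CDTX-injected muscles it was at 8.65, 7.81 and 8.3 with SCI and at 6.74, 7.51, 7.56 and 7.45 with sham surgery. SCI+Saline was again the highest group, SCI+CDTX and Sham+Saline overlapped, and all Sham+CDTX arrays were below the rest. The rise with SCI in saline muscle was 2.38-fold (1.25 ± 0.22, adjusted p = 0.000312), the smaller of the rises of the 2 ligases.

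Foxo1, the transcription factor upstream of both ligases, was the dimmest retained gene at a probe brighter than 50.9% of retained probes. It was at 6.92, 6.97, 6.95 and 7.09 in SCI+Saline, against 6.33, 5.69, 5.73 and 6.32 in Sham+Saline. Its levels were 6.29, 5.87 and 5.45 in SCI+CDTX and 5.67, 5.56, 5.92 and 5.9 in Sham+CDTX. The SCI+Saline arrays sat close together above all others, while the other 3 groups overlapped. The SCI+Saline level was 1.96-fold that of Sham+Saline (0.97 ± 0.18, adjusted p = 0.000603), the smallest of the 13 changes.

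Gadd45a, a stress protein induced in denervated muscle, had the largest change. Its brighter probe ILMN_2742152 was at 12.15, 12.16, 12.68 and 11.86 in SCI+Saline and at 9.74, 9.57, 9.39 and 9.57 in Sham+Saline, a 6.26-fold difference (2.65 ± 0.2, adjusted p = 1.74e-08). In SCI+CDTX it was at 11.96, 11.38 and 10.91 and in Sham+CDTX at 9.47, 9.72, 9.48 and 9.42. At this probe the SCI arrays stood apart from the sham arrays, with or without CDTX, and the sham groups overlapped. The second probe, ILMN_2947568, gave 2.51 ± 0.21 for the same comparison in saline muscle.

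Cdkn1a, which encodes the cell cycle inhibitor p21, showed a different order of groups. At its brightest probe ILMN_2634083 it was at 10.51, 10.49, 10.79 and 10.45 in SCI+Saline and at 10.18, 10.05 and 10.21 in SCI+CDTX. It was at 9.81, 9.37, 9.72 and 9.41 in Sham+CDTX and at 8.47, 8.4, 8.48 and 8.39 in Sham+Saline. The 4 groups did not overlap at this probe, and Sham+Saline was the lowest by the widest gap. SCI+Saline exceeded Sham+Saline 4.37-fold (2.13 ± 0.13, adjusted p = 2.16e-09), and the other probes gave 2.33 ± 0.16 and 2.03 ± 0.17.

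Eif4ebp1, which encodes the repressor of cap-dependent translation 4E-BP1, was at 12.31, 12.55, 12.72 and 12.22 in SCI+Saline and at 12.03, 11.92 and 11.9 in SCI+CDTX. It was at 10.62, 9.94, 9.9 and 9.96 in Sham+CDTX and at 10.55, 10.39, 10.45 and 10.65 in Sham+Saline. Every SCI array was above every sham array, and within the sham mice the groups overlapped through Sham+CDTX replicate 1. The rise in saline muscle was 3.84-fold (1.94 ± 0.16, adjusted p = 8.64e-08).

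Hdac4, a class IIa histone deacetylase that responds to denervation, was at 8.84, 8.34, 9.19 and 9.62 in SCI+Saline and at 7.74, 7.46, 7.35 and 6.99 in Sham+Saline. With CDTX it was at 8.84, 8.09 and 7.99 after SCI and at 6.98, 7.33, 7.28 and 7.23 after sham surgery. SCI and sham arrays did not overlap, and within each surgery the injections did. Its rise in saline muscle was 3.06-fold (1.61 ± 0.24, adjusted p = 5.07e-05).

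Sqstm1, the autophagy receptor p62, was at 12.28, 12.36, 12.63 and 11.9 in SCI+Saline, at 12.13, 11.46 and 11.61 in SCI+CDTX, at 10.88, 11.37, 11.16 and 11.06 in Sham+CDTX and at 11.54, 11.34, 11.05 and 11 in Sham+Saline. The SCI groups overlapped, as did the sham groups. SCI+Saline exceeded Sham+Saline 2.08-fold (1.06 ± 0.18, adjusted p = 0.000279).

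The direction and the call of these 13 probes were the same in all 325 combinations of a probe with an alternative setting. Scaling arrays by their median in place of quantile normalization moved the median of all probes to 0.17 in this comparison and put 86.4% of all calls on the higher side, against 50.3% otherwise. Normalizing each slide separately put 68.3% of them there. Each of the 13 probes was higher by all of these. Beside these results, 5 of 6 endothelial markers were called lower in SCI+Saline (1 of 6 under median scaling), with a summed intensity of 766.3 to 1032 against 1300 to 1625 in Sham+Saline. Of the muscle fibre markers 2 of 14 were lower and 0 higher, and of the macrophage markers 2 of 11 were higher (6 under median scaling) and 0 lower. Of the fibroadipogenic markers 3 of 8 were lower (1 lower and 1 higher under median scaling). Of the neutrophil markers 1 of 7 was higher. They had summed intensities of 3879, 2249, 2050 and 12980 in SCI+Saline and of 207.9, 156.3, 161.5 and 10810 in Sham+Saline. Replicate 4 stood apart in both groups. The part of all these markers' cells in the results was not tested. In whole muscle, more or fewer cells of a type and more or less RNA per cell cannot be told apart.

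**Figure D2:**
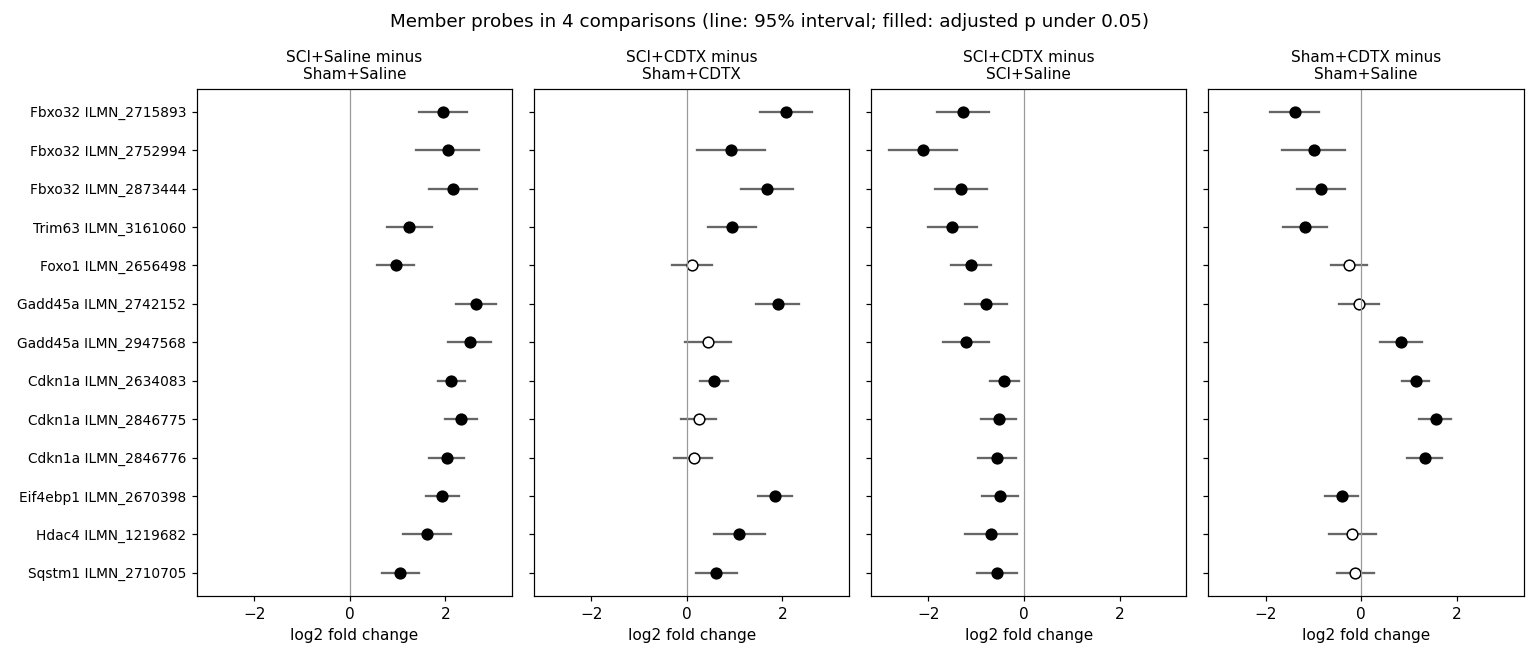
Log2 fold change (horizontal axis) of each retained member probe in 4 comparisons, with its 95% interval as a line; filled points have an adjusted p under 0.05. All 13 points are filled and above 0 in SCI+Saline minus Sham+Saline, and all 13 are filled and below 0 in SCI+CDTX minus SCI+Saline.

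CDTX in mice with SCI was accompanied by lower levels of the same probes. Of 13 probes, 13 were lower and 0 higher in SCI+CDTX than in SCI+Saline, against 42.9% of all probes called, 20.4% higher and 22.5% lower, with a median of -0.79 over the 13 probes and -0.05 over all probes. The comparison uses the SCI+Saline arrays that also stand in the comparison above, so the opposite signs of both comparisons are not independent. With the excluded SCI+CDTX replicate 2 in the fit, 8 of the 13 were called, all lower, against a background of 35.1%. Under median scaling 11 were called, all lower, against 43.4% of all probes, of which 64.9% were higher (47.6% otherwise). With the probe difference score as a covariate 9 were called, all lower, against 40.9%. Without SCI+CDTX replicate 3 the number was 7, and without replicate 4 it was 8. In the authors' deposited table, 8 of the 13 probes had a difference p-value under 0.05, with lower means in SCI+CDTX. Of all 25697 probes, detected or not, 18.8% passed there, in either direction.

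The ligases had the largest of these differences. Fbxo32 was 2.49-fold lower at ILMN_2873444 (-1.32 ± 0.26 SE, adjusted p = 0.000524), and its other probes gave -1.27 ± 0.26 for ILMN_2715893 and -2.11 ± 0.34 for ILMN_2752994. Trim63 was 2.82-fold lower (-1.5 ± 0.24, adjusted p = 7.41e-05), and Foxo1 was 2.16-fold lower (-1.11 ± 0.2, adjusted p = 0.000208). The calls of the 3 Fbxo32 probes and of Trim63 held in all 26 alternative settings run for this comparison.

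Gadd45a was lower by -0.79 ± 0.21 at ILMN_2742152, where the groups overlapped, and by -1.22 ± 0.23 at ILMN_2947568, where they did not. The smaller changes were those of Hdac4 (-0.69 ± 0.26), Sqstm1 (-0.56 ± 0.2), Eif4ebp1 (-0.5 ± 0.18) and the Cdkn1a probes (-0.41 to -0.56), and the groups overlapped for Hdac4 and Sqstm1. The calls of Hdac4, Sqstm1 and Eif4ebp1 were lost in 10, 9 and 5 of 26 alternative settings. With replicate 2 in the fit, Hdac4 (adjusted p = 0.261), Sqstm1 (0.18), the Cdkn1a probes ILMN_2846775 (0.22) and ILMN_2846776 (0.0642) and Gadd45a ILMN_2947568 (0.24) were not called.

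Replicate 2 itself had levels, normalized with all 16 arrays, of 10.2 for Fbxo32 ILMN_2873444, 8.79 for Trim63, 6.83 for Foxo1, 12.2 for Gadd45a ILMN_2742152, 9.4 for Hdac4 and 12.46 for Sqstm1. Each of these is above the other SCI+CDTX arrays. For Eif4ebp1 it was lower than all of them, at 11.82 against 12.05, 11.94 and 11.92, and at Fbxo32 ILMN_2715893 its 8.75 was below the 8.82 of replicate 1. At Gadd45a ILMN_2947568 it stood at 11.99, above all SCI+Saline arrays.

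Macrophage and some other cell type markers moved with CDTX in SCI mice. Of 11 macrophage and monocyte markers, 10 were higher in SCI+CDTX than in SCI+Saline (median 1.9), and their summed intensity was 13870 to 20200 against 2051 to 5354. Of the fibroadipogenic markers 5 of 8 were higher, and of the muscle fibre markers 3 of 14 were lower and 0 higher, with a median of 0.02. Summed muscle fibre intensity was 153800 to 167100 in SCI+CDTX and 149600 to 173900 in SCI+Saline, so the ranges overlap. Neutrophil markers, 2 of 7 higher and 0 lower (median -0.26), also had overlapping sums, of 3006 to 5033 and 2050 to 12980. Endothelial markers, 3 of 6 higher and 0 lower, had sums of 1330 to 1678 against 766.3 to 1032. The part of these cells in the member probes' change was not tested.

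CDTX in sham mice gave a split picture. Of the 13 probes, 4 were higher and 5 lower in Sham+CDTX than in Sham+Saline, where 48.9% of all probes were called, 23.1% higher and 25.8% lower. At the brightest probe of each gene, 1 of 8 genes was higher and 3 were lower, near the share of all probes called. With 16 arrays 3 of the 13 probes were higher and 4 lower, where 44.1% of all probes were called. Under median scaling the split was 5 higher and 0 lower, where 53.4% of all probes were called, with the median of all probes moved to 0.32 and 85.1% of all calls higher (47.3% otherwise). With the probe difference score as a covariate it was 1 higher and 6 lower, where 20.7% of all probes were called.

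Cdkn1a was higher with CDTX in sham mice at all 3 probes, by 1.14 ± 0.13 (2.21-fold, adjusted p = 1.3e-06) at ILMN_2634083, 1.56 ± 0.16 at ILMN_2846775 and 1.33 ± 0.17 at ILMN_2846776. With the score as a covariate, ILMN_2634083 kept its call at 1.1 (adjusted p = 0.0274), and the others were at 0.73 (0.274) and 0.53 (0.412). The probes ILMN_2846775 and ILMN_2846776 read 6.75 to 7.51 and 5.54 to 6.18 in Sham+Saline and 8.42 to 8.97 and 7.02 to 7.5 in Sham+CDTX, with no overlap at either.

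Trim63 was 2.27-fold lower in Sham+CDTX (-1.18 ± 0.22, adjusted p = 0.000214), and at -0.44 under median scaling it was not called (adjusted p = 0.11). Fbxo32 was lower by -0.83 ± 0.24, -1.39 ± 0.24 and -0.99 ± 0.32 at ILMN_2873444, ILMN_2715893 and ILMN_2752994. Median scaling gave -0.11, -0.58 and -0.34 for these probes, none of them called. ILMN_2752994 is not detected on Sham+CDTX replicate 1, where it reads 4.45, so its fold there is bounded by the background of that array. Eif4ebp1 was called lower (-0.41 ± 0.16, adjusted p = 0.0466), and this call was lost in 18 of 25 alternative settings and turned to 0.04 under median scaling. With the score as a covariate Eif4ebp1 was at -0.07 (adjusted p = 0.93).

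Foxo1 (-0.25 ± 0.18), Hdac4 (-0.18 ± 0.24) and Sqstm1 (-0.12 ± 0.18) did not pass the test in sham mice in the 15-array fit. With the score as a covariate Foxo1 was called lower, at -1.47 (adjusted p = 0.0343). Under median scaling Hdac4 was called higher, at 0.63 (adjusted p = 0.0418). The 2 Gadd45a probes differed. ILMN_2742152 changed by -0.04 ± 0.2 (95% interval -0.46 to 0.37), and ILMN_2947568 rose by 0.83 ± 0.21 (adjusted p = 0.00317), from 7.99 to 8.65 in Sham+Saline to 8.79 to 9.31 in Sham+CDTX. With the score as a covariate, ILMN_2947568 was at -2.18 (adjusted p = 0.0196) and ILMN_2742152 at -0.75 (0.352). The direction at ILMN_2947568 therefore depends on this covariate, and no direction is given for Gadd45a in sham mice. Of the macrophage markers 10 of 11 were higher in Sham+CDTX (summed intensity 16580 to 19720 against 2178 to 3575), as were 8 of 8 fibroadipogenic markers (median 1.25, and 0.53 with the score as a covariate, where no call passed). Of the endothelial markers 4 of 6 were lower (2 lower and 2 higher under median scaling), with sums of 745.3 to 815.2 against 1300 to 1625. Of the muscle fibre markers 3 of 14 were lower and 2 higher (7 and 1 under median scaling), with sums of 149000 to 166400 against 172100 to 184600, which do not overlap. The part of these markers' cells in the changes was not tested.

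SCI in CDTX-injected muscle was accompanied by higher levels of most member probes. Of 13 probes, 9 were higher and 0 lower in SCI+CDTX than in Sham+CDTX, where 29.8% of all probes were called and 14.9% were called higher, with a median of 0.93 over the 13 probes and 0.01 over all probes. With the excluded replicate 2 in the fit the number was also 9, against 17.5% of all probes. Under median scaling 8 were called, all higher, against 31.5%. With the probe difference score as a covariate 7 of 13 were called, all higher, where 262 of 14955 probes (1.75%) were called. The share of all calls that were higher was 49.9%, and 66.6% with each slide normalized separately. By the authors' deposited table, a total of 7 of the 13 probes had a difference p-value under 0.05 in this comparison, with higher means in SCI+CDTX. Of all 25697 probes, detected or not, 16.3% passed, in either direction.

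Gadd45a ILMN_2742152 had 1.9 ± 0.21 (3.72-fold, adjusted p = 4.06e-06) and Eif4ebp1 1.84 ± 0.18 (3.59-fold, adjusted p = 7.57e-07). For Eif4ebp1 the authors' deposited table gives mean intensities of 3606.9 in SCI+CDTX and 1128.6 in Sham+CDTX, with 6057.5 in SCI+Saline and 1376.2 in Sham+Saline. Fbxo32 rose at its 3 probes, by 1.68 ± 0.26 at ILMN_2873444, 2.08 ± 0.26 at ILMN_2715893 and 0.93 ± 0.34 at ILMN_2752994. The last of these calls (adjusted p = 0.047) was lost in 12 of 26 alternative settings.

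Hdac4 rose by 1.1 ± 0.26 (adjusted p = 0.00321), Trim63 by 0.94 ± 0.24 (0.00592), Sqstm1 by 0.62 ± 0.2 (0.0249) and Cdkn1a ILMN_2634083 by 0.57 ± 0.14 (0.00578). The call of Sqstm1 was lost in 7 of 26 alternative settings. With the score as a covariate Trim63 was at 1.49 (adjusted p = 0.06), Sqstm1 at 1.19 (0.0985) and Cdkn1a ILMN_2634083 at 0.63 (0.204). Foxo1 did not pass the test, at 0.11 ± 0.2 (95% interval -0.31 to 0.52), nor did the Cdkn1a probes ILMN_2846775 (0.25 ± 0.17) and ILMN_2846776 (0.14 ± 0.19). Gadd45a ILMN_2947568 was at 0.45 ± 0.23 without the score and at 2.93 with it (adjusted p = 0.00211).

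Cell type markers also moved in this comparison. Of the endothelial markers 3 of 6 were higher in SCI+CDTX and 0 lower, with sums of 1330 to 1678 against 745.3 to 815.2 in Sham+CDTX. Of the fibroadipogenic markers 3 of 8 were lower and 0 higher, with sums of 13040 to 16690 against 21740 to 25180. Neutrophil markers summed to 3006 to 5033 against 647 to 943.3, but 0 of 7 were called and their median was 0.25. Among them S100a8 was at 3.31 ± 1.26 and S100a9 at 3.49 ± 1.39, neither past the test (limma adjusted p = 0.0553 and 0.0661). None of these 3 pairs of ranges overlaps. Of the macrophage markers 3 of 11 were higher and 2 lower, and of the muscle fibre markers 1 of 14 was higher and 3 lower, both with overlapping sums. Their part in the member probes' change was not tested.

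**Figure D3:**
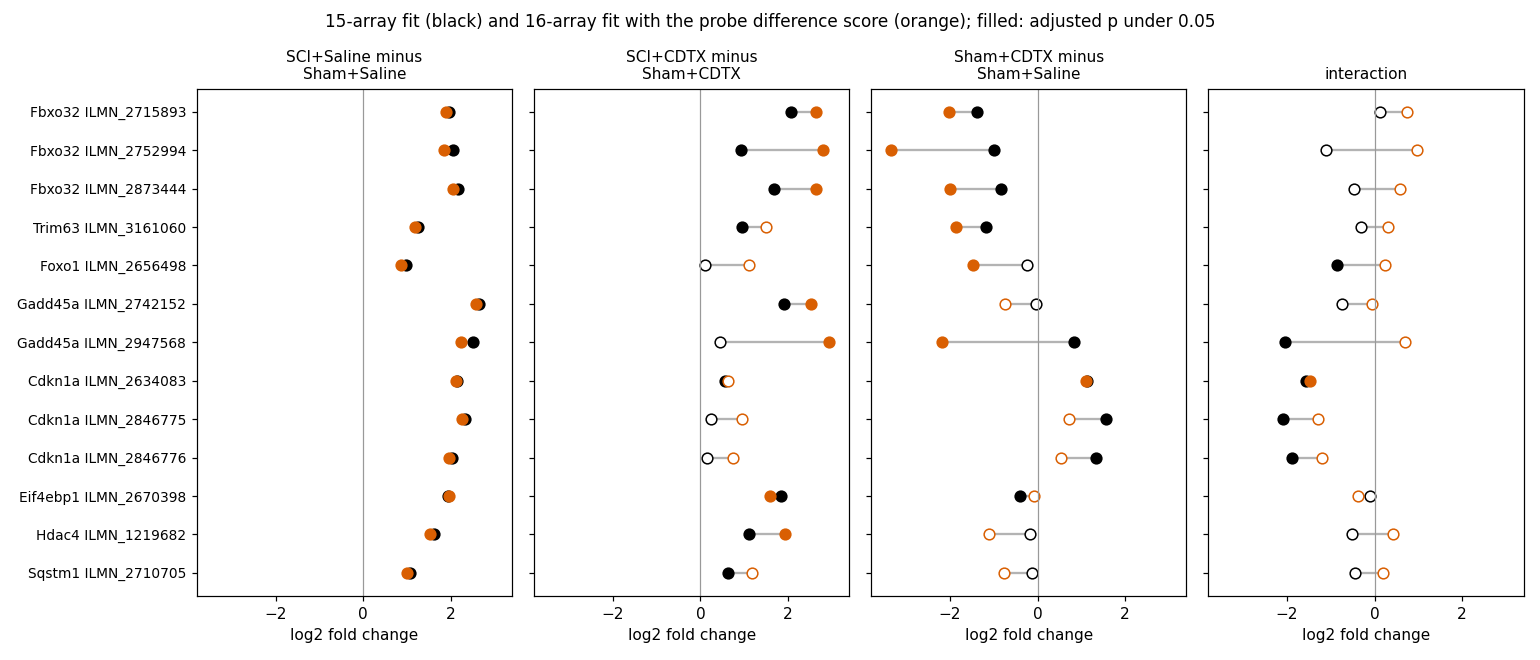
Log2 fold change (horizontal axis) of each retained member probe in the 15-array fit (black) and in the 16-array fit with the probe difference score as a covariate (orange), for 3 comparisons and the interaction; filled points have an adjusted p under 0.05 and a grey line joins both values of a probe. The values nearly coincide in saline muscle, and Gadd45a ILMN_2947568 changes most in the panels that involve Sham+CDTX, from 0.83 to -2.18 in Sham+CDTX minus Sham+Saline.

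The interaction asks whether CDTX acted differently in SCI and in sham mice. Of the 13 probes, 5 were called and all 5 were negative, against 23.6% of all probes called and 11.6% called negative. At the brightest probe of each gene, 2 of 8 genes were called, both negative, near the share of all probes called. The 5 probes were the 3 Cdkn1a probes at -1.56 ± 0.2, -2.09 ± 0.24 and -1.89 ± 0.26 (adjusted p = 3.12e-05, 1.24e-05 and 6.45e-05), Gadd45a ILMN_2947568 at -2.05 ± 0.31 (0.000151) and Foxo1 at -0.86 ± 0.27 (0.0268). The Foxo1 call was lost in 8 of 24 alternative settings and its sign turned in 1 more, the score covariate (0.24). Gadd45a ILMN_2947568 turned to 0.7 (adjusted p = 0.655) with the score, and the brighter Gadd45a probe ILMN_2742152 was not called, at -0.75 (adjusted p = 0.0687). For Cdkn1a, CDTX went with a higher level in sham mice and a slightly lower level in SCI mice.

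With replicate 2 in the fit the 3 Cdkn1a probes were the only calls (10.2% of all probes). With the score as a covariate Cdkn1a ILMN_2634083 was the only one, at -1.48 (adjusted p = 0.0341), where 0.288% of all probes were called. Under median scaling 12 of 13 were called, all negative, where 32.1% of all probes were called, 17.7% of these calls were positive (51% otherwise) and the median of all probes was -0.24. For Fbxo32 ILMN_2873444 (-0.48 ± 0.36), Trim63 (-0.31 ± 0.33), Hdac4 (-0.52 ± 0.35) and Sqstm1 (-0.44 ± 0.27) the interaction did not pass the test, with 95% intervals of -1.23 to 0.27, -1 to 0.37, -1.25 to 0.22 and -1.01 to 0.13.

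The members were correlated over the arrays, most weakly in the pairs of Cdkn1a with Trim63, Foxo1 and Fbxo32. Over the 15 arrays and the brightest probe of each gene, the Pearson correlation of log2 levels was 0.92 between Fbxo32 and Trim63, 0.96 between Gadd45a and Eif4ebp1, 0.94 between Fbxo32 and Sqstm1 and 0.38 between Trim63 and Cdkn1a, the lowest of 28 pairs. Among pairs without Cdkn1a the lowest was 0.68, between Foxo1 and Eif4ebp1. These values describe arrays that share groups, slides and normalization. Among 10952 genes, those most like Fbxo32 were Mettl21a (r = 0.964), 2900073G15Rik (0.954) and Cul1 (0.949), of which Cul1 encodes the cullin scaffold of the ligase complexes that hold F-box proteins. Among those most like Trim63 were Mfsd4b1 (0.966) and 4930453N24Rik (0.965).

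Other genes of the pathway, from 7 lists, were read at the brightest retained probe of each gene. Each list count for SCI in saline muscle stands beside 14.8% of all probes called higher and 14.6% called lower. Under median scaling 34.8% of all probes were called, and 86.4% of these calls were higher. In SCI+Saline against Sham+Saline the list on Hdac4, myogenin and denervation moved most, with 9 of 12 genes higher and 1 lower (median 1.75). Myog, the myogenic factor that follows Hdac4 in denervated muscle, was higher by 3.34 ± 0.19, Chrng, the fetal acetylcholine receptor subunit, by 3.05 ± 0.27, and Musk, the kinase of the neuromuscular synapse, by 2.68 ± 0.14. Musk was detected on 1 of 4 Sham+Saline arrays, so its fold is limited by background there. In the interaction 8 of these 12 genes were negative and 0 positive, against 11.6% and 12% of all probes. With the score as a covariate the number was 3, where 0.288% of all probes were called.

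The rest of the FoxO and ligase machinery did not rise as a whole in saline muscle. Of 13 retained FoxO and starvation targets 3 were higher and 1 lower (median 0.06). Ddit4, an inhibitor of mTORC1, was at 1.34 ± 0.16 and the antioxidant enzyme Cat at 1.22 ± 0.18, while the sestrin Sesn1 was at -1.58 ± 0.18. Of 15 other muscle ubiquitin ligases and related enzymes 2 were higher and 4 lower (median -0.12), and under median scaling 5 were higher and 0 lower. The deubiquitinase Usp14 was at 1.59 ± 0.22 and the F-box gene Fbxo31 at 1.32 ± 0.2, and Asb2 was at -0.77 ± 0.21.

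Of 18 autophagy and mitophagy genes 5 were higher and 2 lower (median 0.12; 7 and 0 under median scaling), with Map1lc3a, the LC3 protein of the autophagosome, at 1.22 ± 0.24, the lysosomal protease Ctsl at 0.92 ± 0.24 and the kinase Ulk2 at -0.86 ± 0.23. Of 15 ATF4 and p53 stress targets 6 were higher and 3 lower (median 0.4), among them Phlda3 (1.09 ± 0.2), Ccng1 (-1.1 ± 0.19) and Gadd45b (-1.35 ± 0.21), the last of which moved opposite to its paralogue Gadd45a. Of 11 insulin, IGF and Akt genes 2 were higher, among them the kinase Akt2 (1.55 ± 0.17), and 0 lower. Of 9 translation genes 2 were higher, Eif4a1 (0.93 ± 0.15) and Rps6 (0.6 ± 0.17), and 0 lower. All of these named changes passed at an adjusted p of at most 0.0131 by limma.

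**Figure D4:**
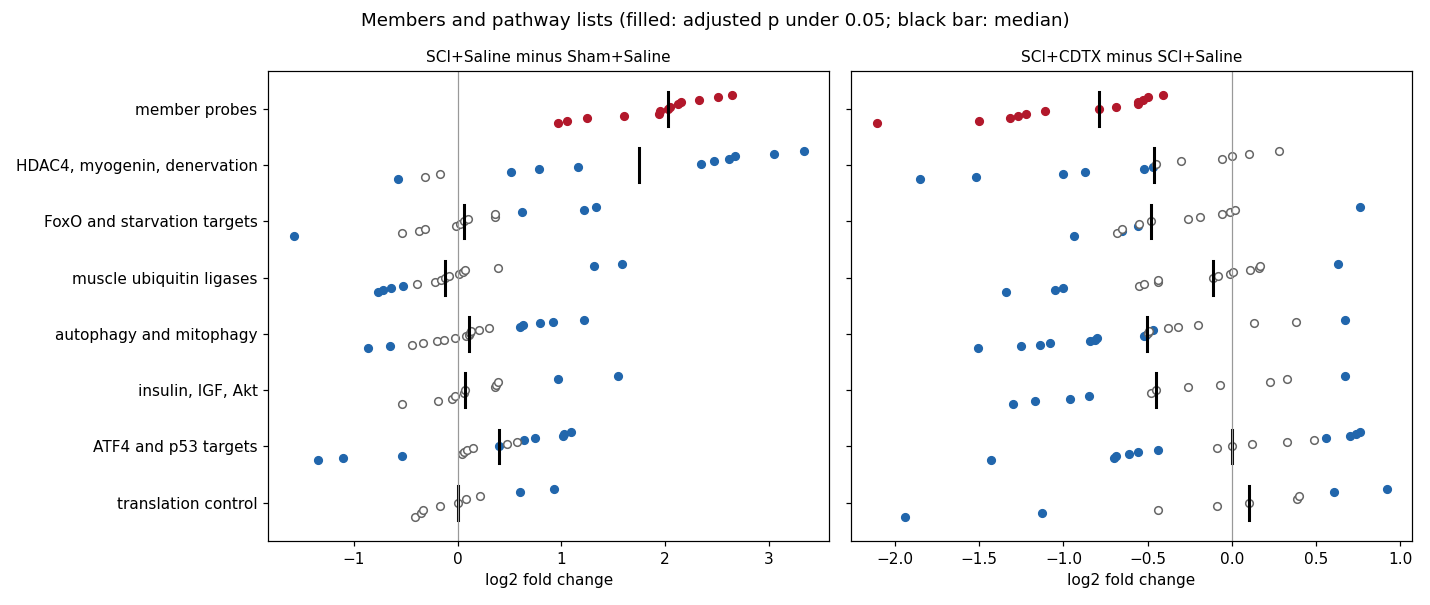
Log2 fold change (horizontal axis) of the 13 member probes (red) and of the genes of 7 pathway lists (blue where the adjusted p is under 0.05, open where not), with the median of each row as a black bar, in SCI+Saline minus Sham+Saline and in SCI+CDTX minus SCI+Saline. In saline muscle the member probes have a median of 2.03 and the denervation list one of 1.75, while the other lists lie between -0.12 and 0.4.

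In SCI+CDTX against SCI+Saline, 22.5% of all probes were called lower and 20.4% higher. There 10 of the 18 autophagy genes were lower and 1 higher (median -0.5). Map1lc3a was at -1.51 ± 0.26, the phosphoinositide effector Wipi1 at -1.25 ± 0.22 and Ulk2 at -1.14 ± 0.25. Of the denervation list 6 of 12 were lower and 0 higher (median -0.46), led by Mef2c, a transcription factor bound by class IIa deacetylases, at -1.85 ± 0.3, Musk at -1.52 ± 0.16 and Myog at -1 ± 0.2. Of the insulin, IGF and Akt genes 4 of 11 were lower and 1 higher, with Pik3r1 at -1.3 ± 0.26, Akt2 at -1.17 ± 0.18 and Gsk3b at -0.96 ± 0.21.

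Of the ligase list 3 of 15 were lower, Fbxo30 (-1.34 ± 0.29), Ube2b (-1.05 ± 0.19) and Usp14 (-1 ± 0.23), and 1 was higher. The lower counts of the ligases, the FoxO targets and the translation genes were near the 22.5% of all probes called lower. Of the FoxO targets 3 of 13 were lower and 1 higher, with Cat at -0.94 ± 0.19, Ccng2 at -0.65 ± 0.23 and Sesn1 at 0.76 ± 0.19. Of the translation genes 2 of 9 were lower, Eif4ebp2 (-1.94 ± 0.44) and Eef2k (-1.13 ± 0.24), and 2 were higher, Eif4a1 (0.92 ± 0.16) among them. The ATF4 and p53 targets split into 4 higher and 6 lower of 15, with Chac1 at -1.43 ± 0.31, Atf3 at 0.76 ± 0.3 and Gadd45b at 0.74 ± 0.22. The calls of Atf3 and Ccng2 were lost in 11 and 9 of 26 alternative settings. With replicate 2 in the fit the autophagy count was 7 lower and 1 higher, and that of the ATF4 and p53 targets 2 higher and 4 lower. In that fit 35.1% of all probes were called.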

How the data were processed

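Intensity per probe and array was deposited by the authors without normalization or background subtraction, per the file headers, with a detection p-value for each, made with GenomeStudio 2011.1 per the submitters' processing notes. The authors' normalized final table gives group means of intensity and a difference p-value against SCI+CDTX, per the file headers; whether that p-value was adjusted is not given in the sources used here. The genome build of the array annotation is not named, so probes are placed by cytoband only.

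Here, intensities of 15 arrays were corrected for background with neqc, which reads it from the detection p-values, then quantile normalized on the log2 scale after adding 16 to each intensity, which understates folds of dim probes. Probes with a detection p-value under 0.05 on at least 3 arrays were kept. A model of the 4 group means was fitted to all of them with limma 3.58.1 in R 4.3.3, adjusted by Benjamini-Hochberg over all kept probes and called under 0.05. Alternatives were all 16 arrays, median scaling, no background correction, each slide normalized separately, other detection filters, trended and robust variances, fewer groups in the fit, a replicate block, the probe difference score, each array left out and the authors' final values. The code was tested on simulated data. The number of arrays limits precision. No per-sample column was unused (0).

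Every probe of the 10 genes was named; from each pathway list at most 3 called genes with the largest change per comparison, here for 2 comparisons; and the 3 genes most correlated with each ligase. Some genes that these rules name are not reported here. Members and lists were chosen with earlier results of these data known. Symbols were updated through Entrez identifiers in the RefSeq annotation.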

Additional observations from a re-analysis of the deposited data

Results flagged for a closer look

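In 8 of 52 groups of 4 arrays tested over the member probes, 1 array lay apart from the other 3 by Dixon's criterion at the 95% level, a criterion that chance meets in about 1 group in 20. Sham+CDTX replicate 1 did so for Fbxo32 ILMN_2715893 (level 5.53, nearest 6.2), Trim63 (6.74, nearest 7.45) and Eif4ebp1 (10.62, nearest 9.96), low for the ligases and high for Eif4ebp1. Sham+CDTX replicate 3 was low for Gadd45a ILMN_2947568 (8.79, nearest 9.25), and Sham+Saline replicate 4 was low for Trim63 (8.18, nearest 8.56). SCI+Saline replicate 2 was high for Cdkn1a ILMN_2846776 (8.39, nearest 7.83). The excluded SCI+CDTX replicate 2, normalized with all 16 arrays, was high for Cdkn1a ILMN_2846775 (9.74, nearest 8.96) and ILMN_2846776 (7.82, nearest 7.43).

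The effect of CDTX differed between SCI and sham mice by the interaction test at 5 member probes in the 15-array fit. These were Cdkn1a ILMN_2634083 (-1.56), ILMN_2846775 (-2.09) and ILMN_2846776 (-1.89), Gadd45a ILMN_2947568 (-2.05) and Foxo1 (-0.86), on the log2 scale. With the probe difference score as a covariate only Cdkn1a ILMN_2634083 kept its call (-1.48), and Gadd45a ILMN_2947568 (0.7) and Foxo1 (0.24) changed sign without a call. The brighter Gadd45a probe ILMN_2742152 was at -0.75 and not called (adjusted p = 0.0687). What moved with them was not tested beyond the alternatives given in the report.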

How the results depend on the processing

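The 13 calls in saline muscle held under each of the alternatives run for that comparison, with log2 fold changes from 0.46 (Foxo1, no background correction) to 3.29 (Gadd45a ILMN_2742152, median scaling). Some counts of called member probes moved by more than 1.5 times. For CDTX in SCI mice (13) these were 8 with all 16 arrays and 8 in the authors' final table. They were also 7 without SCI+CDTX replicate 3 and 8 without SCI+CDTX replicate 4. For CDTX in sham mice (9) the count was 5 under median scaling. For the interaction (5) the counts were 3 with all 16 arrays, 12 under median scaling and 1 with the probe difference score. Leaving out each array in turn gave 7 to 13 calls for CDTX in SCI mice, 7 to 9 for CDTX in sham mice, 7 to 9 for SCI in CDTX muscle, 13 to 13 for SCI in saline muscle and 4 to 7 for the interaction. Among values called in the 15-array fit or under the alternative, directions turned with the score as covariate for Foxo1 in the interaction (0.24), for Gadd45a ILMN_2947568 in the interaction (0.7) and for CDTX in sham mice (-2.18), and under median scaling for CDTX in sham mice at Eif4ebp1 (0.04) and Hdac4 (0.63). The cause was not tested. Of all combinations of a probe and an alternative, 298 of 338 kept their side of the threshold for CDTX in SCI mice, 292 of 325 for CDTX in sham mice, 314 of 338 for SCI in CDTX muscle, 325 of 325 for SCI in saline muscle and 285 of 312 for the interaction; among these, values called in neither fit changed sign in 4 for CDTX in sham mice, 1 for SCI in CDTX muscle and 12 for the interaction. With the score, the interaction turned in this way at Fbxo32 ILMN_2752994 (0.96) and ILMN_2873444 (0.58), Trim63 (0.3), Hdac4 (0.41) and Sqstm1 (0.2), and under median scaling CDTX in sham mice did at Foxo1 (0.47), Gadd45a ILMN_2742152 (0.48) and Sqstm1 (0.2). Same-numbered samples do not pair in general (correlations of their deviations -0.27 to 0.38, 3 of 14 over 0.1). The highest, 0.38, was between replicate 4 of SCI+Saline and of Sham+Saline, each the best match of the other. The fit with the replicate block gave 13, 8, 9, 13 and 5 calls, for CDTX in SCI mice, CDTX in sham mice, SCI in CDTX muscle, SCI in saline muscle and the interaction. The added check of the likeness values kept each r at 0.892 or above; it was chosen after seeing the data. Dim probes (Foxo1, Fbxo32 ILMN_2752994) are limited by their signal over background, and slide cannot be separated from SCI.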
